A study of Mus musculus with 9 samples.

Results

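The IL-1 family was followed through sorted colitis macrophages by 10 of its genes, among 22180 genes that had a probe set with 1 symbol on the array. The members were the ligands Il1a, Il1b, Il18, Il33, Il1f6 and Il1f9, the secreted inhibitors Il1rn and Il18bp, and the receptors Il1r1 and Il1r2. A gene was taken where the array annotation gave a probe set that 1 symbol only, with the brightest probe set to stand for it. Each of the 10 members had exactly 1 such probe set, and none shared one with another gene.

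Lamina propria macrophages had been sorted as CD45+ CD11b+ F4/80+ cells from 9 C57BL/6 mice, 1 mouse per array, after 5 days of 3% dextran sodium sulfate (DSS) in the drinking water and 3 days of regular water. DSS damages the colon epithelium and so causes acute colitis, and Day 8 stands for its resolution phase. The control mice (LysMCre, n = 5) carried the myeloid Cre transgene with intact Arnt, and the LysMCre;Arntfl/fl mice (n = 4) carried the same transgene with floxed Arnt alleles, so that both groups had Cre and DSS. LysM-driven Cre acts in both macrophages and neutrophils and deletes less completely in less mature cells. In cells from bone marrow, the authors found a lower deletion efficiency of Arnt in neutrophils than in macrophages. ARNT is the partner that both HIF-1α and HIF-2α, and also the aryl hydrocarbon receptor, need to bind DNA. The floxed Arnt line came from a mixed background and had been backcrossed to C57BL/6 before the cross with LysMCre mice, with no number of generations given. The sources used here give no ages for the mice.

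IL-1 family cytokines act early in inflammation, and innate immune cells and barrier epithelia are their main sources. IL-1α and IL-1β bind the receptor IL-1R1, which recruits the accessory chain IL-1RAP and passes the signal through MyD88 and IRAK kinases to NF-κB. The antagonist IL-1RN occupies IL-1R1 without a signal, and IL-1R2 is a decoy that binds IL-1 but lacks the signaling domain. The IL-36 cytokines, whose genes are Il1f6 (IL-36α), Il1f8 (IL-36β) and Il1f9 (IL-36γ), use their own receptor with the same accessory chain, and Il1f5 encodes the antagonist of that receptor. IL-18 is held in check by the soluble IL-18BP, and IL-33 is a nuclear alarmin of stromal and epithelial cells. In the intestine these cytokines are known both for driving colitis and for their part in mucosal repair.

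Values were log2 expression values from RMA, which corrects the background, brings all arrays to a shared distribution and reduces each probe set to 1 number, so that a difference of 1 is a doubling of the signal. Genotypes were compared with limma, p-values were adjusted over all 34365 probe sets, and a gene was called at an adjusted p below 0.05 together with a fold change above 1.5. Log2 fold changes are LysMCre;Arntfl/fl minus LysMCre. All values lay between 2.26 and 14.27 and the medians of the arrays between 5.98 and 6.04. Arnt itself was called lower, with a log2 fold change of -0.66 (adjusted p = 0.0214 from limma, standard error 0.09) and values of 9.31 to 9.54 in LysMCre and 8.60 to 8.84 in LysMCre;Arntfl/fl. Its call was lost without LysMCre replicate 3 (0.0635) or 5 (0.0607), or without LysMCre;Arntfl/fl replicate 2 (0.0534), 3 (0.0626) or 4 (0.0883), with a difference of at least 0.62 each time. Macrophage markers were high in all arrays (mean of 13 genes 11.16 to 11.59 in LysMCre and 10.94 to 11.33 in LysMCre;Arntfl/fl). Of these genes 3 were positive and 10 negative, with a median log2 fold change of -0.25. Limma called 0 of them and a SAM-type d score 0, although 7 had an unadjusted p below 0.05 (11.5% of all probe sets did). Without overlap, 1 lay above the controls and 2 below (2.52% and 2.22% of all probe sets). In samples of sorted cells, fewer cells of a type and less RNA per cell cannot be told apart.

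The promoters of 3 members are shown because ARNT-containing dimers bind short core motifs in DNA and because the values of these members differed in course: those of Il1r2 were lower and those of Il1f9 higher in every LysMCre;Arntfl/fl array, neither called by limma, and those of Il1b overlapped. Each sequence covers the 250 bases before the start that RefSeq gives on GRCm38.p6, and is read along the strand of the gene. Capitals mark ACGTG, a core of the HIF motif, and GCGTG, a core of the aryl hydrocarbon receptor motif that HIF can share, on either strand.
Il1r2, chr1:40085843-40086092 (+): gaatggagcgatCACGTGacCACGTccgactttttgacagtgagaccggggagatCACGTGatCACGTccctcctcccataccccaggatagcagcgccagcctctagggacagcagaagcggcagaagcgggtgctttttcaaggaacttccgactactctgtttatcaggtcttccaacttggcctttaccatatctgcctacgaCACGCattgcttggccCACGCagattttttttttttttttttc
Il1f9, chr2:24186226-24186475 (+): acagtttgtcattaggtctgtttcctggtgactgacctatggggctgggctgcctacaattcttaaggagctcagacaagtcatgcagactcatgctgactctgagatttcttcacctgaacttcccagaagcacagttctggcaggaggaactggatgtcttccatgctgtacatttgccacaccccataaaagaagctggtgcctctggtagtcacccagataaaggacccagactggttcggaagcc
Il1b, chr2:129371140-129371389 (-): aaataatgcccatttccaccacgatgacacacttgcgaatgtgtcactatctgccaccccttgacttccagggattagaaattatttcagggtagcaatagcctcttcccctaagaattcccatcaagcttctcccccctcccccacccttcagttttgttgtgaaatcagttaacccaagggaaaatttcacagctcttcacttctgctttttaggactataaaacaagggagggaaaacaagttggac
The Il1r2 window held 6 matches to ACGTG when both strands were counted, since a palindromic CACGTG counts on each of them, and 2 matches to GCGTG, which did not overlap the first motif. The matches formed 6 stretches that began at -238, -230, -195, -187, -43 and -27 from the start. No match to either motif lay in the windows of Il1f9 and Il1b, which says only that these letters were absent from these bases. All members but Il1f6 had at least 1 window, 13 windows in all, of which 2 held ACGTG (Il1r1 and Il1r2) and 3 held GCGTG (Il1rn, Il1r1 and Il1r2). Il1r1 and Il1rn, whose windows are not printed, overlapped between genotypes, with log2 fold changes of -0.02 and 0.07. Binding of ARNT to any window was not tested. Among all 32851 promoter windows of this length, 16.6% held ACGTG, 28.2% held GCGTG and 38.6% held either.

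Of the 10 members, limma called 1 as higher in LysMCre;Arntfl/fl, which was Il1f6, and 0 as lower, against 0.143% of all probe sets for higher and 0.151% for lower calls. The SAM-type d score, a permutation test on the same values, called 2 (Il1f6 and Il1f9), where it called 0.917% of all probe sets, and the same pair passed the 1.5-fold threshold, as 2.62% did. Il1f6, Il1f9 and Il1r2 showed no overlap between genotypes (3 members, against 4.73% of all probe sets). The first pair lay above the control arrays (2 members, against 2.52% of all probe sets) and Il1r2 below them (1 member, against 2.22%). In both directions together, 4 members (Il1f6, Il1f9, Il33 and Il1r2) had an unadjusted p below 0.05, a level that 11.5% of all probe sets reached. The median log2 fold change over the members was -0.03, with 4 positive and 6 negative, beside 0.01 over all probe sets. The plot of the members by array shows how the IL-36 genes Il1f6 and Il1f9 stood out from the rest.

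**Figure D1:**
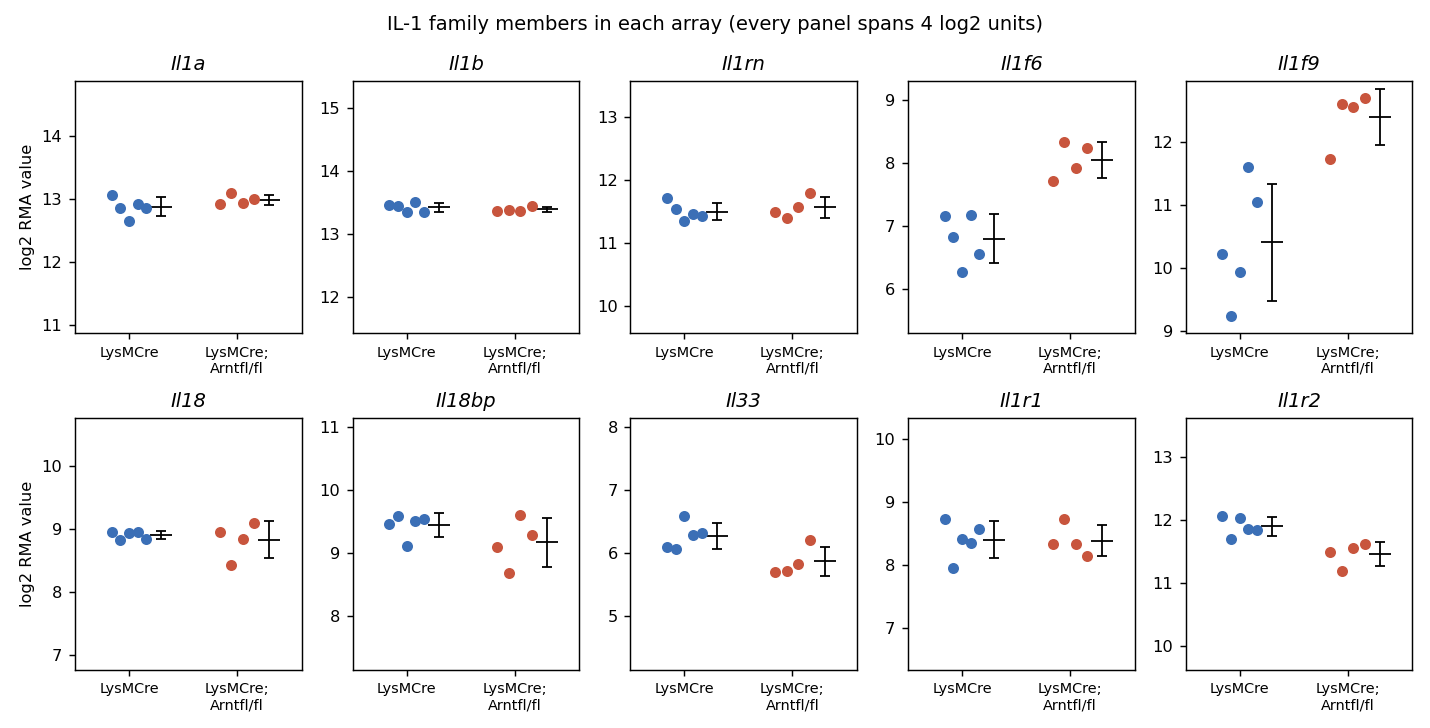
Log2 RMA values of the 10 members, 1 panel per gene and 1 point per array (blue, 5 LysMCre; red, 4 LysMCre;Arntfl/fl), with the mean and SD of each group beside the points. Il1f6 and Il1f9 lay higher in every LysMCre;Arntfl/fl array than in any LysMCre array and Il1r2 lay lower, while the groups overlapped in the other 7 panels.

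The classical agonists Il1a and Il1b were strongly expressed and close to level between genotypes. Il1b, the secreted IL-1 that inflammasomes activate, had log2 values of 13.47, 13.45, 13.36, 13.52 and 13.35 in LysMCre replicates 1 to 5 and of 13.37, 13.38, 13.37 and 13.46 in LysMCre;Arntfl/fl replicates 1 to 4. The arrays overlapped, and the SD was 0.07 in LysMCre and 0.04 in LysMCre;Arntfl/fl. The log2 fold change was -0.03 (95% interval -0.20 to 0.13, adjusted p = 0.918 from limma). Il1a, the alarmin form that is active without processing, had log2 values of 13.06, 12.86, 12.65, 12.93 and 12.86 in LysMCre and of 12.92, 13.09, 12.93 and 12.99 in LysMCre;Arntfl/fl. Here too the groups overlapped, with a log2 fold change of 0.11 (95% interval -0.10 to 0.32, adjusted p = 0.733 from limma). Both intervals lay inside the 1.5-fold threshold, which is 0.58 on the log2 scale. The antisense RNA gene Il1bos, beside Il1b on chromosome 2, differed by -0.32 (standard error 0.20, adjusted p = 0.599 from limma).

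Il1f6 and Il1f9, both IL-36 ligands, had the largest fold changes of the 10 members. Il1f6, which encodes IL-36α, had log2 values of 7.17, 6.83, 6.28, 7.17 and 6.55 in the LysMCre arrays and of 7.71, 8.33, 7.93 and 8.23 in the LysMCre;Arntfl/fl arrays. The lowest LysMCre;Arntfl/fl array was 0.54 above the highest LysMCre array. This was a 2.38-fold increase (adjusted p = 0.0359 from limma), or 1.25 ± 0.20 as log2 fold change and standard error. The difference stayed between 1.12 and 1.36 when any 1 array was left out. The call, however, was lost without LysMCre replicate 2 (adjusted p = 0.0693 from limma), 3 (0.0796) or 5 (0.0880) and without LysMCre;Arntfl/fl replicate 2 (0.0971), 3 (0.104) or 4 (0.124).

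Il1f9, which encodes IL-36γ, had the largest fold change of the members and also the widest spread. Its log2 values were 10.22, 9.24, 9.95, 11.61 and 11.05 in LysMCre, and 11.74, 12.61, 12.55 and 12.70 in LysMCre;Arntfl/fl. LysMCre replicates 4 and 5 stood above the other controls, and the gap from replicate 4 to the lowest LysMCre;Arntfl/fl array was 0.13. The means differed 3.96-fold (log2 fold change 1.98, standard error 0.42, 95% interval 1.06 to 2.90), but limma did not call it (adjusted p = 0.0754). Without LysMCre replicate 4 the log2 fold change was 2.28 and the gene was called (adjusted p = 0.0308 from limma), and the SAM-type d score called it on all arrays (q = 0.0304). The SD of Il1f9 was 0.93 in LysMCre, where that of Il1f6 was 0.39 and that of Il1b 0.07.

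The remaining IL-36 and related ligands did not share this course. Il1f6, Il1f9, Il1f5, Il1f8, Il1f10 and Il1rn lie beside each other on chromosome 2, where Il1a and Il1b also lie. The log2 fold change was 0.02 for Il1f5, the IL-36 receptor antagonist, -0.09 for Il1f8 (IL-36β) and -0.12 for Il1f10 (IL-38), with adjusted p-values of 0.972, 0.868 and 0.725 from limma. Their log2 values reached at most 5.99 in any array, and each value was below the median of its array. None of the 3 genes separated the genotypes.

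Il18 and Il33 completed the ligands. Il18 had log2 values of 8.95, 8.82, 8.92, 8.94 and 8.83 in LysMCre and of 8.95, 8.43, 8.84 and 9.09 in LysMCre;Arntfl/fl, so that the groups overlapped (log2 fold change -0.07, 95% interval -0.34 to 0.21, adjusted p = 0.904 from limma). Il33 had log2 values of 6.10, 6.07, 6.59, 6.28 and 6.32 in LysMCre and of 5.70, 5.72, 5.83 and 6.21 in LysMCre;Arntfl/fl. Of the LysMCre;Arntfl/fl arrays, replicates 1, 2 and 3 lay below every control and replicate 4 among them. The signal was low: in replicates 1, 2 and 3 it was also below the median of the same array (6.03, 6.00 and 5.99). The log2 fold change of Il33 was -0.41 (95% interval -0.71 to -0.11, adjusted p = 0.255 from limma), and it was not called. Stromal markers, among the usual sources of IL-33, had means of 7.73 to 8.53 in LysMCre and 7.83 to 8.66 in LysMCre;Arntfl/fl over 10 genes (5 positive, 5 negative). Limma and the SAM-type d score called 0 of them, and 5 had an unadjusted p below 0.05 (11.5% of all probe sets did). The part of stromal cells in the Il33 values was not tested.

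The secreted inhibitors were not called. Il1rn had log2 values of 11.72, 11.54, 11.35, 11.47 and 11.42 in LysMCre and of 11.50, 11.40, 11.57 and 11.79 in LysMCre;Arntfl/fl, with a log2 fold change of 0.07 (95% interval -0.17 to 0.30, adjusted p = 0.877 from limma). The groups overlapped, with LysMCre;Arntfl/fl replicate 4 above every control and LysMCre replicate 3 below every LysMCre;Arntfl/fl array. Il18bp had log2 values of 9.46, 9.59, 9.12, 9.52 and 9.54 in LysMCre and of 9.10, 8.69, 9.61 and 9.30 in LysMCre;Arntfl/fl. Its arrays overlapped as well (log2 fold change -0.27, 95% interval -0.65 to 0.10, adjusted p = 0.605 from limma), and here the interval reached beyond the 1.5-fold threshold. Within each array, Il1b exceeded Il1rn by 1.93 ± 0.12 (SD, n = 5) log2 units in LysMCre and by 1.83 ± 0.13 (SD, n = 4) in LysMCre;Arntfl/fl, a difference between 2 probe sets that is read here only across genotypes.

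Among the receptors the decoy Il1r2 was the one whose genotypes did not overlap. Il1r2 had log2 values of 12.06, 11.69, 12.04, 11.85 and 11.84 in LysMCre and of 11.50, 11.18, 11.55 and 11.61 in LysMCre;Arntfl/fl. Every LysMCre;Arntfl/fl array lay below every LysMCre array, with a gap of 0.08. The 1.35-fold lower mean (log2 fold change -0.44, standard error 0.11, 95% interval -0.69 to -0.19) was below the fold threshold and was not called (adjusted p = 0.139 from limma). The signaling receptor Il1r1 had log2 values of 8.72, 7.94, 8.41, 8.35 and 8.57 in LysMCre and of 8.32, 8.72, 8.33 and 8.14 in LysMCre;Arntfl/fl. These overlapped (log2 fold change -0.02, 95% interval -0.38 to 0.34, adjusted p = 0.984 from limma). For 5 members, Il1a, Il1b, Il1rn, Il18 and Il1r1, the whole 95% interval stayed inside the 1.5-fold threshold.

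Neutrophil markers had higher means in LysMCre;Arntfl/fl, and the Il1f9 values followed them from array to array. The mean log2 value of 16 neutrophil genes was 7.61, 7.48, 7.69, 8.71 and 8.31 in LysMCre replicates 1 to 5 and 8.90, 8.73, 9.39 and 9.37 in LysMCre;Arntfl/fl replicates 1 to 4. Of these genes 15 were positive and 1 negative (median log2 fold change 0.98), and limma called 1, the granule gene Ngp (log2 fold change 3.45, adjusted p = 0.0330). The SAM-type d score called 5 of the 16 as higher, where it called 0.917% of all probe sets in either direction. An unadjusted p below 0.05 was reached by 12 (11.5% of all probe sets), and 4 lay above the controls without overlap (2.52% of all probe sets). The call of Ngp held without LysMCre replicate 4 or LysMCre;Arntfl/fl replicate 1 and was lost without any of the other 7 arrays, with an adjusted p of up to 0.110. The defining marker Ly6g had log2 values of 5.16 to 7.81 in LysMCre and 6.95 to 7.94 in LysMCre;Arntfl/fl. LysMCre replicates 4 and 5, with the highest neutrophil means among controls, were also the controls with the highest Il1f9.

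Over the 9 arrays, after the mean of each genotype was removed, Pearson's r with the neutrophil mean was 0.85 for Il1f9, 0.15 for Il1f6 and 0.21 for Il1r2. Before that step r was 0.95, 0.77 and -0.60 for the same genes. These correlations describe arrays that share their normalization. When limma took the neutrophil mean as a covariate, it estimated a log2 fold change of 0.37 for Il1f9 (standard error 0.41, adjusted p = 0.846), 1.12 for Il1f6 (standard error 0.36, adjusted p = 0.405) and -0.52 for Il1r2 (standard error 0.20, adjusted p = 0.498). In that fit the estimate for Il1f6 was close to that without the covariate and the estimate for Il1f9 was not. None of the members was called in it, nor was any probe set, although 3037 probe sets and 4 members had an unadjusted p below 0.05, where the fit on genotype alone had 3956 and 4. Because the neutrophil means of the genotypes did not overlap, the covariate and the genotype were largely confounded, and the standard errors of all members rose except that of Il1f9. The part of neutrophil RNA in each difference was not tested beyond this fit.

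**Figure D2:**
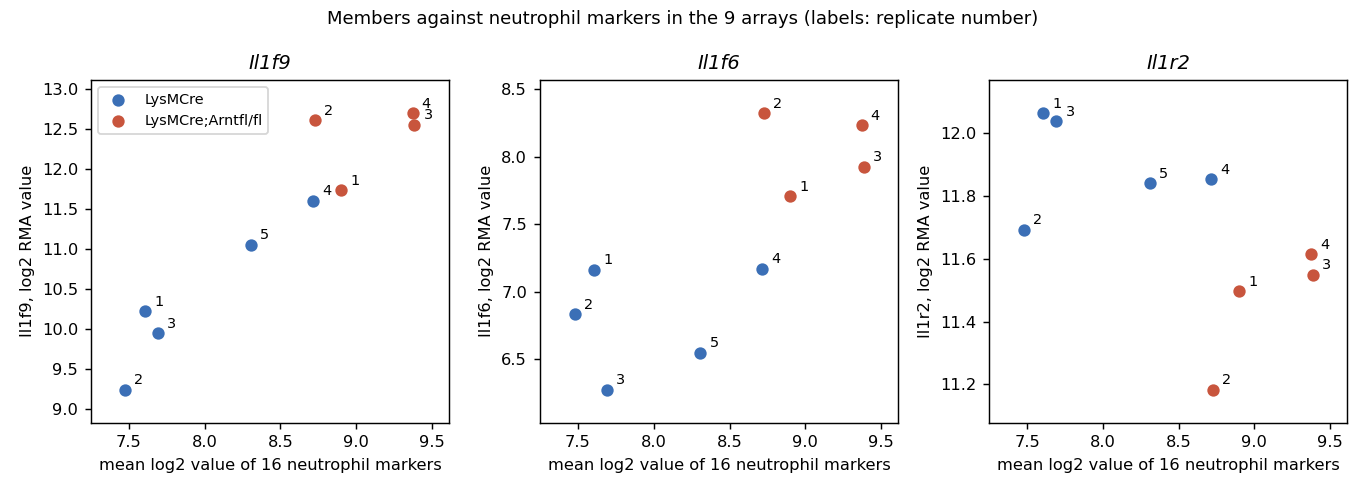
Log2 RMA value of Il1f9, Il1f6 and Il1r2 (vertical axes) against the mean log2 value of 16 neutrophil markers (horizontal axes) in each of the 9 arrays, labelled by replicate number (blue, LysMCre; red, LysMCre;Arntfl/fl). Both Il1f9 and Il1f6 separated by colour, with gaps of 0.13 and 0.54. Pearson's r with the neutrophil mean was 0.95 for Il1f9 and 0.77 for Il1f6 over the 9 arrays, and 0.85 and 0.15 within genotypes.

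**Figure D3:**
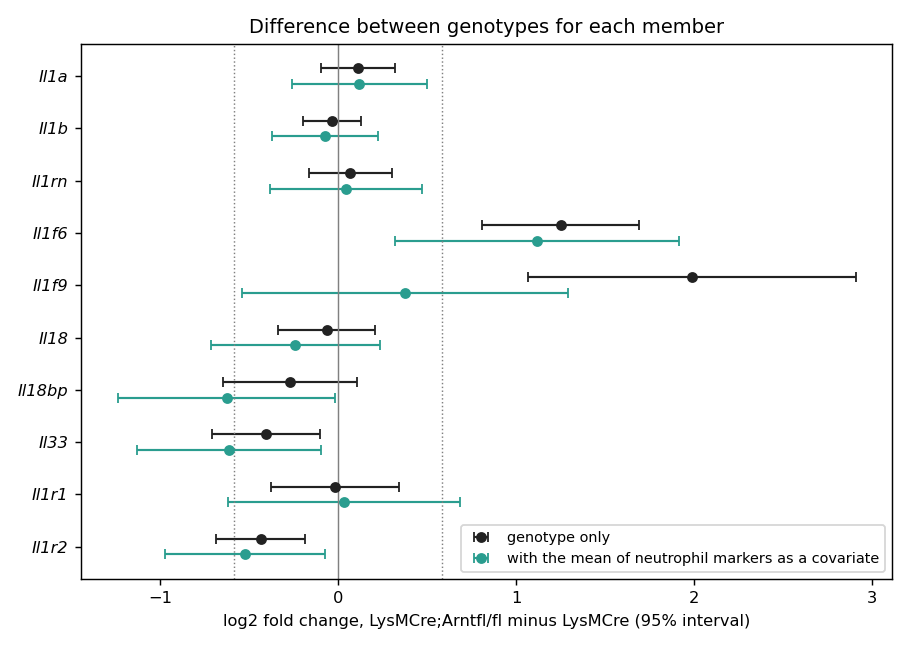
Log2 fold change of each member with its 95% interval from limma, from genotype alone (black) and with the mean of neutrophil markers as a covariate (green); dotted lines mark the 1.5-fold threshold. Il1f6 changed little between the fits (1.25 and 1.12) and Il1f9 went from 1.98 to 0.37.

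Markers of other cell types were compared by their means and counts, without a correlation or a covariate fit. Monocyte markers had means of 8.84 to 9.80 over 7 genes in LysMCre and 9.72 to 10.02 in LysMCre;Arntfl/fl (5 positive, 2 negative). Limma called 0 of them and the SAM-type d score 1, Chil3 (log2 fold change 2.25, q = 0.0307), where it called 0.917% of all probe sets. An unadjusted p below 0.05 was reached by 3 (11.5% of all probe sets). Epithelial markers, which matter here since epithelium is a usual source of IL-36, IL-18 and IL-33, had means of 7.06 to 9.56 over 12 genes in LysMCre and 7.99 to 8.82 in LysMCre;Arntfl/fl, with 9 positive, 3 negative, 0 called by limma or the SAM-type d score and 1 at an unadjusted p below 0.05. The epithelial means of the genotypes overlapped. Mast cell, basophil and eosinophil markers had means of 5.49 to 6.10 over 8 genes in LysMCre and 5.91 to 6.82 in LysMCre;Arntfl/fl, with 6 positive and 2 negative. Limma and the SAM-type d score called 0 of them, and 4 had an unadjusted p below 0.05 (11.5% of all probe sets did). The parts of these cells in the members' values were not tested.

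The genes most like the IL-36 members over the 9 arrays differed between Il1f9 and Il1f6. For Il1f9 the 5 highest Pearson correlations were with Fpr2 (0.99), Chil1 (0.99), Mrgpra2a (0.99), Lcn2 (0.99) and Asprv1 (0.98), and they were 0.95 to 0.97 after the genotype means were removed. For Il1f6 they were with Kcng3 (0.98), Hsf4 (0.98), Saa3 (0.97), Tnfrsf1b (0.97) and Blcap (0.97), and 0.87 to 0.94 within genotypes. No gene was in both sets of 5, while Il1f6 and Il1f9 themselves correlated at 0.84 over the 9 arrays and at 0.40 within genotypes. Between members, the highest correlation within genotypes was 0.89, for Il1a with Il1f6, followed by 0.84 for Il1b with Il1f6 and 0.82 for Il18 with Il1r2, and the lowest was -0.54, for Il1a with Il33. Each r describes the 9 arrays and carries no test.

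Beyond the members, 54 of 59 listed genes of the IL-1 pathway had a probe set with 1 symbol. Of these, limma called 1 as higher, Saa3, and 0 as lower, where 0.294% of all probe sets were called in either direction. Their median log2 fold change was 0.11, with 38 positive and 16 negative, beside 0.01 over all probe sets. Of the 54, 8 lay above the controls without overlap (2.52% of all probe sets did) and 4 below (2.22%). Beyond the 1.5-fold threshold lay 8 of the 54, where 2.62% of all probe sets did. The plot by role shows that 6 of these were targets, 1 a receptor and 1 a gene of the signaling chain.

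Among 7 other receptor genes, 5 were positive and 2 negative. Limma called 0 and the SAM-type d score 1 (Il1rap), where it called 0.917% of all probe sets. Il1rap was also the 1 gene with an unadjusted p below 0.05 (11.5% of all probe sets). Il1rap, the accessory chain shared by the IL-1, IL-33 and IL-36 receptors, had log2 values of 8.35, 7.88, 7.85, 8.68 and 8.35 in LysMCre and of 9.001, 8.98, 9.31 and 9.57 in LysMCre;Arntfl/fl. The genotypes did not overlap, with a 1.99-fold difference of the means (0.996 on the log2 scale with a standard error of 0.19, adjusted p = 0.0562 from limma). Limma called it without LysMCre replicate 4 (adjusted p = 0.0308), the SAM-type d score called it on all arrays (q = 0.0247), and with the neutrophil mean as a covariate its log2 fold change was 0.32. Il18rap, the accessory chain for IL-18, differed by 0.55 on the log2 scale and Sigirr, an inhibitory receptor, by -0.25, both with an adjusted p of 0.474 from limma. The receptor of IL-36 itself, Il1rl2, was added after its values were seen and had log2 values of 6.84 to 7.55 in LysMCre and 7.10 to 8.17 in LysMCre;Arntfl/fl (log2 fold change 0.12, adjusted p = 0.905 from limma).

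In the signaling chain, 13 of 16 genes were positive and 3 negative. Limma called 0 of them and the SAM-type d score 1 (Irak3), where it called 0.917% of all probe sets. An unadjusted p below 0.05 was reached by 5 (11.5% of all probe sets). Without overlap, 3 lay above the controls and 1 below (2.52% and 2.22% of all probe sets). Irak3, an IRAK without kinase activity that restrains the pathway, had log2 values of 10.99, 10.55, 10.40, 11.22 and 10.90 in LysMCre and of 11.43, 11.93, 11.83 and 11.93 in LysMCre;Arntfl/fl. Again no array of one genotype overlapped the other (adjusted p = 0.0528 from limma, for a log2 fold change of 0.97 with standard error 0.17). The SAM-type d score called Irak3 on all arrays (q = 0.0223), and limma called it without LysMCre replicate 4 (adjusted p = 0.0304) or LysMCre;Arntfl/fl replicate 1 (0.0402), and its log2 fold change was 0.51 with the neutrophil covariate. The adaptor Myd88 had log2 values of 10.30 to 10.72 in LysMCre and 10.73 to 11.10 in LysMCre;Arntfl/fl, without overlap, and a log2 fold change of 0.36 (adjusted p = 0.196 from limma). Ikbkg, the regulatory subunit of the IKK complex, had one of 0.34 (adjusted p = 0.365).

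The enzymes and sensors that process IL-1 cytokines had log2 fold changes from -0.33 to 0.14 over 12 genes (8 positive, 4 negative). Limma called 0 of them and the SAM-type d score 0, and 2 had an unadjusted p below 0.05 (11.5% of all probe sets did). Aim2, a sensor of cytosolic DNA, was the most negative (8.59 to 8.95 in LysMCre and 8.34 to 8.51 in LysMCre;Arntfl/fl, without overlap, adjusted p = 0.176 from limma). Pycard, the inflammasome adaptor, had a log2 fold change of -0.25 and the protease gene Ctss one of -0.23, with adjusted p-values of 0.518 and 0.323 from limma.

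Of 16 target genes that IL-1 and NF-κB induce, 11 were positive and 5 negative. Limma called 1 (Saa3) and the SAM-type d score 3 (Saa3, Ptges and Lcn2, the last with q = 0.0153), where it called 0.917% of all probe sets. An unadjusted p below 0.05 was reached by 9 (11.5% of all probe sets). Without overlap, 4 lay above the controls and 2 below (2.52% and 2.22% of all probe sets). Saa3, a serum amyloid A of the acute phase, had log2 values of 11.90, 12.05, 11.19, 12.39 and 11.29 in LysMCre and of 12.97, 13.50, 13.37 and 13.35 in LysMCre;Arntfl/fl. It rose 2.90-fold (adjusted p = 0.0330 from limma, for a log2 fold change of 1.53 with standard error 0.23). The call was lost without LysMCre replicate 1 (adjusted p = 0.0543), 2 (0.0586), 3 (0.0716) or 5 (0.0780) and without LysMCre;Arntfl/fl replicate 2 (0.0871), 3 (0.104) or 4 (0.110). Lcn2, which binds iron-carrying siderophores, had a log2 fold change of 2.19 and Ptges, a prostaglandin E synthase, one of 1.19, with adjusted p-values of 0.0562 and 0.0925 from limma and no overlap. With the neutrophil covariate the log2 fold change was 1.30 for Saa3, 0.40 for Lcn2 and 1.37 for Ptges. By contrast, the feedback inhibitors Nfkbia and Tnfaip3 had log2 fold changes of -0.02 and 0.00 (adjusted p = 0.965 and 0.995 from limma), a pair named after their values were seen.

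**Figure D4:**
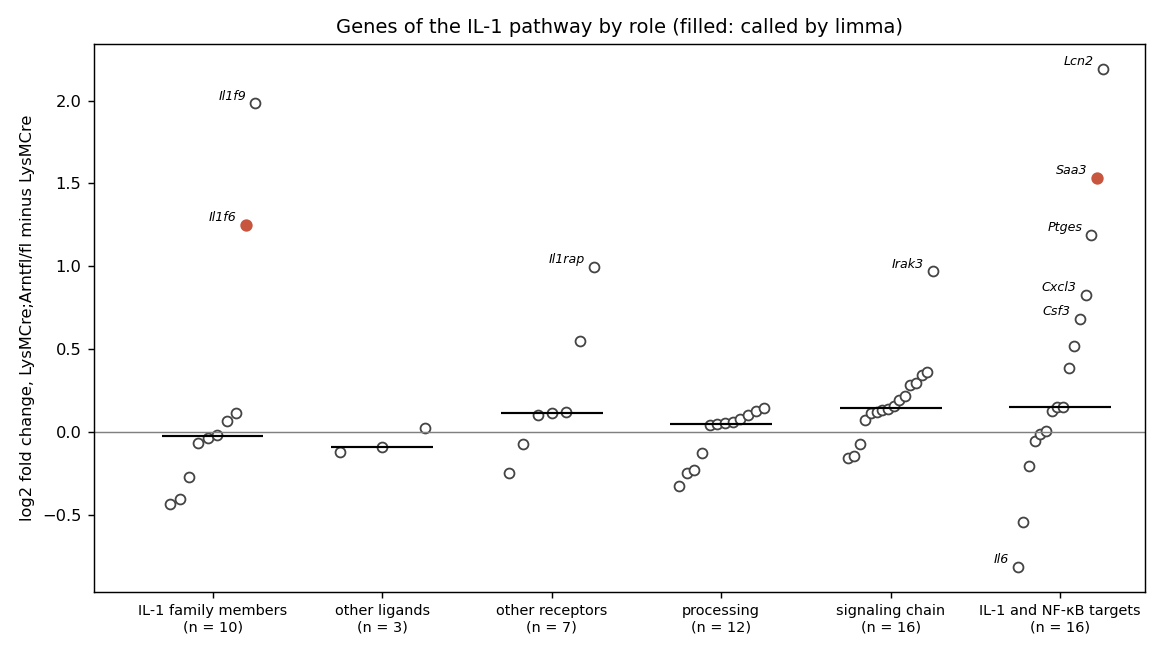
Log2 fold change (LysMCre;Arntfl/fl minus LysMCre) of the 10 members and of 54 other pathway genes, grouped by role, 1 point per gene, with the median of each group as a bar; filled points were called by limma and genes beyond the 1.5-fold threshold are named. Il1f6 and Saa3 are the filled points, and the processing genes lie between -0.33 and 0.14.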

How the data were processed

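Macrophage RNA (1.5 ng per mouse, TRIzol LS) had been hybridized to Affymetrix mouse gene arrays. The deposited values are log2 expression values, 1 per probe set and array, which the authors made with RMA in Expression Console at default settings and analysed with SAM and Partek (version 6.6 according to the submitters' processing notes). For the annotation release and any probe set filter, the sources used here give nothing. Symbols came from the platform annotation (23521 of 34365 probe sets with 1 symbol, 1820 with several, 9024 unnamed here).

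Genotypes were compared with limma 3.58.1 in R 4.3.3 (lmFit, eBayes, Benjamini-Hochberg over all probe sets), tested on simulated data. The number of arrays sets the precision, and the files carry no detection measure. The members, the 5 pathway lists, the marker lists and the tests were chosen with earlier results of these data known, so that no list is independent support. All members were named, and of each pathway list the called genes or the 3 with the largest change. The SAM-type d score used 100 seeded permutations and median false counts. The alternatives were other variance models, tests, filters, normalizations and thresholds, a block for the replicate number, neutrophil markers (their mean) as a covariate, and each array left out. Promoter sequences came from RefSeq (GRCm38.p6) and matched 9 of 10 members by Entrez gene identifier.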

Additional observations from a re-analysis of the deposited data

Results flagged for a closer look

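In 50 groups of 4 or 5 arrays, from the 10 members and 15 named pathway genes, 5 arrays stood far from the rest of their group by Dixon's test, which chance alone passes in about 1 of 20 groups. Il1f9 in LysMCre;Arntfl/fl replicate 1 was 11.74, where the next array was 12.55. Il1b in LysMCre;Arntfl/fl replicate 4 was 13.46 against a next value of 13.38, in a group that spanned only 13.37 to 13.46. Il18bp in LysMCre replicate 3 was 9.12, with 9.46 as the next. Of the pathway genes, Il1f8 in LysMCre;Arntfl/fl replicate 3 was 3.56 (next 3.996), and Il18rap in LysMCre replicate 2 was 6.33 (next 7.21). The cause of each value was not tested.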

How the results depend on the processing

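Over 200 alternative values of the 10 members, 179 kept direction and side of the threshold, 9 turned direction, 9 lost the call and 3 gained one. The losses were all of Il1f6 (log2 fold change 1.12 to 1.36 without 1 array; adjusted p from 0.0102 to 0.405 over its alternatives), under the methods' t-test (0.182), the replicate block (1.19, 0.154), the neutrophil covariate (1.12, 0.405) and 6 of 9 arrays left out. The gains were of Il1f9, by the SAM-type d score, among the brighter probe sets, above the median of the mean (0.0479), and without LysMCre replicate 4 (1.69 to 2.28 without 1 array). Direction turned only where the difference was near 0: Il1b was 0.0013 after a further quantile normalization, and Il1r1 was 0.025 with the replicate block, 0.032 with the neutrophil covariate and -0.13 to 0.062 without 1 array. Without 1 array, Il18 ranged from -0.16 to 0.068 and Il1rn from -0.0074 to 0.12.

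Called probe sets, members and pathway genes numbered 101, 1 and 1. They were 315, 2 and 5 with the SAM-type d score, 4, 0 and 0 with the methods' t-test (3699, 4 and 18 at its unadjusted threshold), 204, 2 and 4 among the brighter probe sets, 167, 1 and 4 with array weights, 303, 2 and 5 at an adjusted p below 0.10, 5, 0 and 0 with the replicate block (3324, 4 and 16 unadjusted) and 0, 0 and 0 with the neutrophil covariate (3037, 4 and 9 unadjusted). Pathway calls were 2 with a variance trend, 2 with robust variances, 2 after quantile normalization and 4 with only 1-symbol probe sets. Without 1 array the counts ran from 1 to 149, from 0 to 2 and from 0 to 4. The cause was not tested.

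The labels do not say whether arrays of 1 replicate number were pairs, and the main fit has no block. Same-numbered deviations correlated at -0.12, -0.07, -0.00046 and 0.17, and 1 of 4 arrays correlated best with its own number. So few correlations cannot exclude pairing. The other probe set alternatives were not run, since each member had 1 probe set. The differences of Il1r2 and Il33 were smaller than 1.5-fold, so that they could not be called at any adjusted p. With 5 and 4 arrays they did not reach an adjusted p below 0.05 either, which does not show that they are absent.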

Other observations

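Some IL-1 target genes ran in opposite directions, chosen here after their values were seen. Il6, the cytokine that IL-1 classically induces, had log2 values of 9.21, 9.04, 8.98, 9.58 and 9.39 in LysMCre and of 8.72, 7.62, 8.69 and 8.67 in LysMCre;Arntfl/fl. All LysMCre;Arntfl/fl arrays lay below the controls, with a log2 fold change of -0.81 (standard error 0.23, adjusted p = 0.161 from limma) that was -1.49 (standard error 0.31) with the neutrophil mean as a covariate. Ptgs2, which encodes cyclooxygenase 2, lay between 12.30 and 12.93 in LysMCre and between 11.83 and 12.18 in LysMCre;Arntfl/fl, also without overlap (log2 fold change -0.55, adjusted p = 0.109 from limma). Ptges, the next enzyme toward prostaglandin E2, had a log2 fold change of the opposite sign, 1.19. Sod2, the mitochondrial superoxide dismutase and an NF-κB target, lay between 10.70 and 11.02 in LysMCre and between 11.29 and 11.44 in LysMCre;Arntfl/fl (log2 fold change 0.52, adjusted p = 0.0550 from limma). Limma called none of Il6, Ptgs2, Ptges and Sod2, while the SAM-type d score called Ptges (q = 0.0415).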
